A study of Mus musculus with 18 samples.

Results

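The 8 genes described here, Vim, Lmna, Actn1, Flna, Tln1, Ahnak, Crip1 and Myo1f, code for cytoskeleton and cytoskeleton-linked proteins. The set is named for activated T cells, and whether each gene follows activation was not tested here. They were taken as the probe sets annotated with exactly 1 gene symbol, that symbol being 1 of the 8, which gave 8 of the 19752 genes on the array, each with 1 probe set. The arrays were 18 Affymetrix Mouse Gene 1.0 ST arrays of RNA from sorted regulatory T cells (Tregs, the Foxp3-expressing T cells that restrain immune responses). All mice were on the NOD background, which is prone to autoimmune diabetes. There were 6 groups of 3 arrays.

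The spleen groups came from female mice aged 60 days that carried Foxp3-eGFP-Cre-ERT2, which makes a green Foxp3 reporter and a tamoxifen-dependent Cre in Foxp3-expressing cells, and a Rosa26-YFP reporter that Cre switches on for good. Tamoxifen was given in 4 injections, between days 0 and 10 of life or between days 35 and 45. Cells positive for both GFP and YFP are called perinate-tagged or adult-tagged after the time of injection. GFP-positive, YFP-negative cells of mice treated at either time are called untagged. The untagged cells are bulk Tregs and can include cells that were present at the injections and escaped recombination. The thymus groups were CD4+ GFP+ cells from males, taken at 4 days of age for perinate thymus and at 5 weeks for adult thymus. No tamoxifen is listed for the thymus groups. Spleen cells were sorted on a FACSAria and thymus cells on a MoFlo. Between tissues the sex, sorter, mouse line, tamoxifen and age thus move together and cannot be told apart. Whether replicates are separate animals is not in the labels. A p-value therefore covers the spread between these samples alone, which may be technical.

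The cytoskeleton of a T cell is built from actin filaments, intermediate filaments and microtubules. Actin is crosslinked and tied to integrins at the membrane, which lets the cell adhere, spread on a target cell and crawl. Vimentin filaments cage the nucleus and collapse to the rear of a moving lymphocyte, and the nuclear lamina sets how stiff the nucleus is. Class I myosins link the plasma membrane to actin. In mouse and human T cells, several of these proteins are more abundant after antigen encounter than in naive cells.

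Promoter sequences are shown for 3 of the genes that were higher in perinate-tagged cells and for Actn1, whose levels ran the other way. Each is the 250 bases before the gene's start in the RefSeq annotation of GRCm38.p6, 5′ to 3′ on the gene's strand, and capitals mark GC boxes (GGGCGG, or CCGCCC on the other strand) and the TATA letters TATAAA. The windows are Myo1f chr17:33555457-33555706 (plus strand), Crip1 chr12:113151762-113152011 (plus strand), Vim chr2:13574061-13574310 (plus strand) and Actn1 chr12:80260364-80260613 (minus strand).
Myo1f: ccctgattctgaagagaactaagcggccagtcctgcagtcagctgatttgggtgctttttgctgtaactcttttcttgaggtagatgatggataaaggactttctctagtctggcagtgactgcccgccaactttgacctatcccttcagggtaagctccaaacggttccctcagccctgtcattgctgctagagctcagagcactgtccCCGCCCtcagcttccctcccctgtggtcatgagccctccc
Crip1: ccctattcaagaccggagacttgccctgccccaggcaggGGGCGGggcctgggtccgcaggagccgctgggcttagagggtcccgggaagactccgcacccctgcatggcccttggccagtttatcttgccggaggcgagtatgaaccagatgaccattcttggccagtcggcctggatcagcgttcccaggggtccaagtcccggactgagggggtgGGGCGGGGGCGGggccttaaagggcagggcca
Vim: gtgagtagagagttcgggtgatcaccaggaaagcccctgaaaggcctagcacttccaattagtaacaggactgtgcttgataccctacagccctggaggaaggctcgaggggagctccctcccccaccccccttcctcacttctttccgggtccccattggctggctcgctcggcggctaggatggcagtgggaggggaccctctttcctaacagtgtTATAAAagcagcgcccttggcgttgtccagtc
Actn1: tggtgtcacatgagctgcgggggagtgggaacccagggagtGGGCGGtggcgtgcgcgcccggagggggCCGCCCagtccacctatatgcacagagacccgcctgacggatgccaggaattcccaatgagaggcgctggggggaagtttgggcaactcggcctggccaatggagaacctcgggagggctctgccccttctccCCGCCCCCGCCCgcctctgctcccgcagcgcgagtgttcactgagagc

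The 3 motifs were searched on both strands in the same window of 32851 mouse promoters. A GC box stood in 32.7% of these promoters, TATAAA in 12.4% and a CArG box, the motif of serum response factor, in 1.5%. Myo1f held 1 GC box, Crip1 3 and Actn1 4, and the last 2 boxes of Crip1 and of Actn1 follow each other directly. Vim held no GC box and a TATAAA whose first base lies at -32 from the start. Ahnak and Flna held 3 GC boxes each, the first of the 2 Lmna promoters held 1, and Tln1 held none of the motifs. No CArG box was found in any of these windows, which says only that its letters are not there. GC content was 53.6% in Myo1f, 58.4% in Vim, 67.2% in Crip1 and 68.4% in Actn1, against a median of 52.4% over all promoters.

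The arrays carried Treg RNA: the 7 measured Treg and T cell markers, Foxp3, Il2ra, Ctla4 and Ikzf2 among them, were above background in every group. Background is given by genes that should be silent, such as Y-linked genes on female arrays and Xist on male arrays, which read 3.95 to 6.30 log2. The platelet genes Pf4 and Ppbp, the B cell genes Cd79a, Ms4a1, Blnk and Ebf1 and the macrophage genes Cd14 and Adgre1 lay in that range in all 6 groups. Other listed genes of such cells did not: above it were 4 of 6 platelet genes and 2 of 6 B cell genes in every group, 1 to 5 of 9 myeloid genes, 2 to 5 of 8 neutrophil genes and 8 to 10 of 13 genes of stroma, endothelium and epithelium. In thymus, Cd8a, which marks CD8 T cells and immature thymocytes, averaged 9.75 log2 in perinate and 10.36 in adult cells, against 6.52 to 6.83 in the 4 spleen groups. Perinate-tagged replicate 2 is labelled female but read 9.79 log2 for the Y-linked gene Eif2s3y, which lay at 3.95 to 4.90 on the 11 other spleen arrays. Called values of the 8 genes that rest on it are also given without it. The interquartile range of values on an array was wider in perinate-tagged than adult-tagged cells (3.05 ± 0.09 and 2.65 ± 0.21 log2 units; SD, n = 3 each) and in perinate than adult thymus (3.03 ± 0.03 and 2.53 ± 0.39). The median gene stood 0.12 log2 higher in perinate-tagged than adult-tagged cells and 0.17 higher in perinate than adult thymus. Its part in the results was tested only by fits that take the interquartile range as a covariate or centre each array on the tested genes.

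Of the 8 genes, 4 were higher in perinate-tagged than in adult-tagged spleen Tregs and none was lower at an adjusted p under 0.05 (limma, Benjamini-Hochberg over 10350 genes). Among all genes tested, 19.5% passed, 16% upwards and 3.5% downwards. The 4 were the motor Myo1f, the LIM protein Crip1, the intermediate filament protein Vim and the scaffold Ahnak. The median difference was 0.42 log2 over the 8 genes and 0.12 over all genes. Markers of other cells that also passed were Cd79b of B cells (9.55 and 8.89 log2 in perinate-tagged and adult-tagged cells), the macrophage gene Cd68 (7.96 and 7.42) and the epithelial gene Epcam (7.54 and 6.47). The summed intensity of 6 B cell genes was 920 to 1087 in perinate-tagged and 712 to 791 in adult-tagged cells, with 4 of the 6 in the background range. For 9 myeloid genes it was 754 to 967 in perinate-tagged and 705 to 734 in adult-tagged cells. Epcam was the 1 of 6 tested genes of stroma, endothelium and epithelium that passed, and the median difference of the 6 was -0.31 log2. The summed intensity of the 13 measured genes of that list was 2342 to 2624 in perinate-tagged and 2577 to 2660 in adult-tagged cells. Among the 7 Treg and T cell markers only Il2ra passed, at -0.39 ± 0.12 log2 (adjusted p = 0.0416, limma), so it was lower on the perinate-tagged arrays. Foxp3 was lower as well (-0.31 log2), while Ikzf2 (0.38) and Ctla4 (0.53 log2) were higher. These 3 did not overlap between the tagged groups and did not pass. The part of any of these markers in the differences was not tested. In such bulk samples, fewer cells of a kind and less RNA per cell cannot be told apart. Groups did not overlap for 6 genes upwards, where 33.2% of all genes did not overlap, and for Actn1 downwards, where 12.7% did not.

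Between perinate and adult thymus, Flna and Tln1 were higher and Myo1f was lower (limma), 3 of the 8 genes. Among the 10650 genes tested there, 24.3% passed, 18.5% upwards and 5.84% downwards. The median difference was 0.28 log2 over the 8 genes and 0.17 over all genes. Flna, Tln1, Actn1 and Ahnak did not overlap upwards, where 36.9% of all genes did not.

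**Figure D1:**
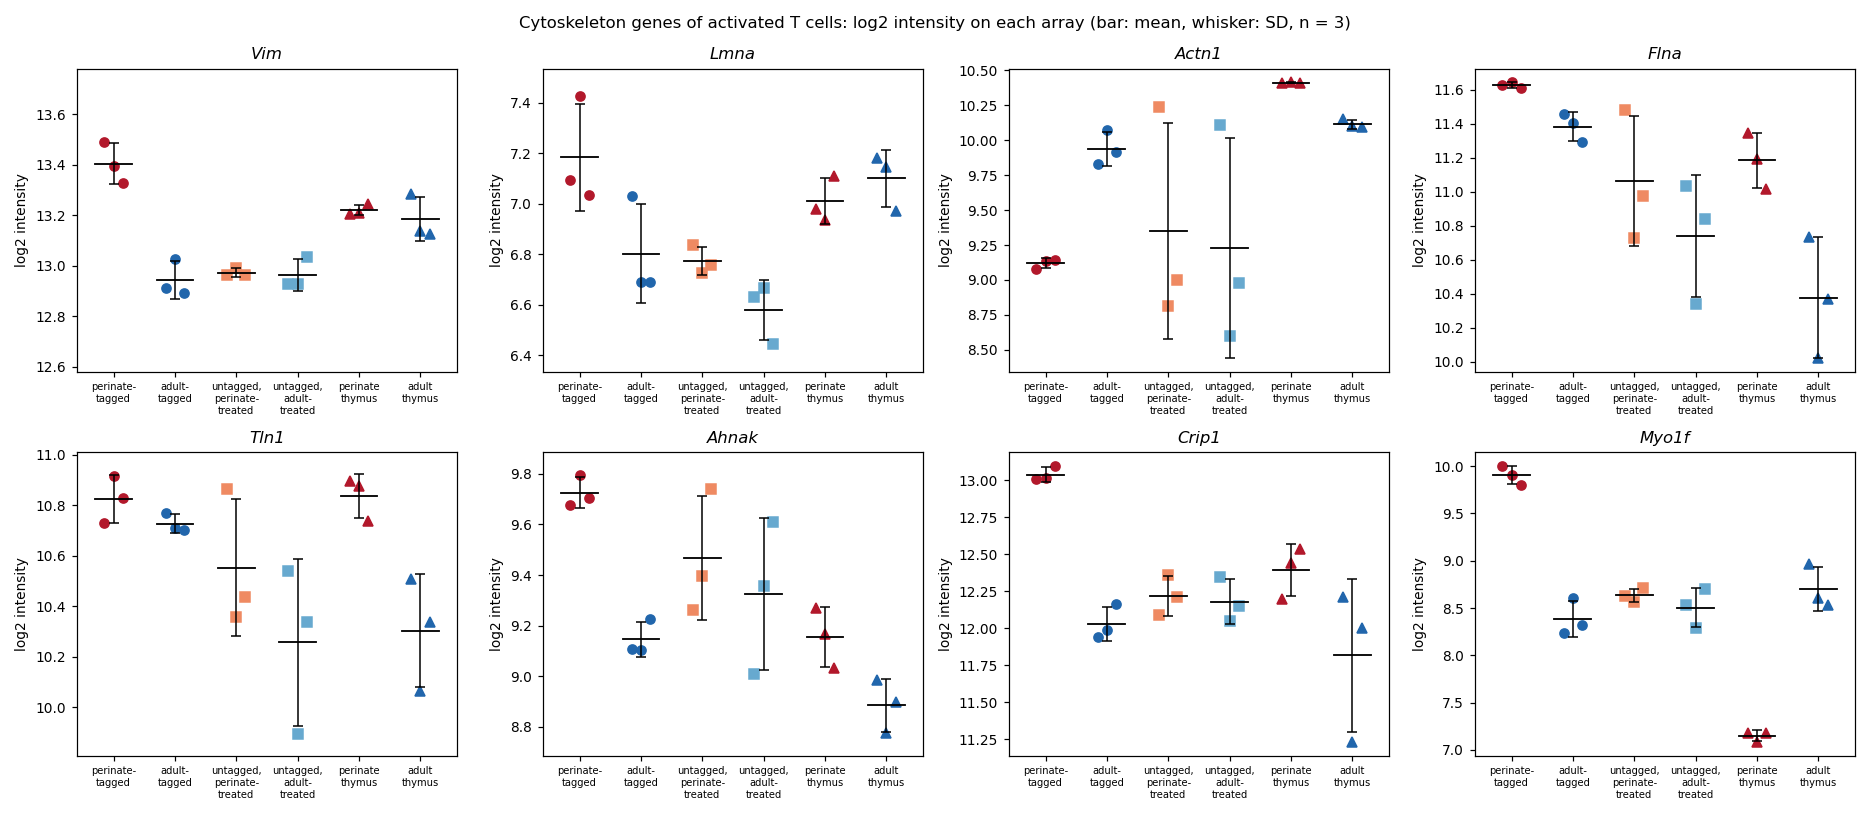
Log2 intensity of each gene (y axis, own scale per panel, at least 1.2 log2 units high) on the 18 arrays, by group (x axis). Points are arrays, the bar is the mean and the whisker the SD (n = 3). Myo1f and Crip1 are highest on the 3 perinate-tagged arrays, while Actn1 is highest in thymus and splits within both untagged groups.

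Vim codes for vimentin, the main intermediate filament protein of lymphocytes. It read 13.49, 13.39 and 13.33 log2 on the perinate-tagged arrays, against 12.91, 13.03 and 12.89 on the adult-tagged arrays. All 3 perinate-tagged arrays lay above every other array of the study for this gene. The difference was 0.46 ± 0.11 log2 (SE), or 1.38-fold, with an adjusted p of 0.00866 (limma). Without perinate-tagged replicate 2 it was 0.42 log2 (adjusted p = 0.0295). The call was lost when the interquartile range of each array entered the fit (0.39 log2, adjusted p = 0.115), and when each array was centred on the tested genes (0.25 log2, adjusted p = 0.0846).

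The untagged arrays read 12.96, 12.99 and 12.96 log2 after perinatal treatment and 12.93, 12.93 and 13.03 after adult treatment. In thymus it read 13.20, 13.21 and 13.24 log2 in perinate cells, against 13.28, 13.14 and 13.13 in adult cells, and the groups overlapped. All 6 thymus arrays lay above the untagged and adult-tagged arrays and below the perinate-tagged ones. The thymus difference was 0.04 ± 0.11 log2, with a 95% interval from -0.21 to 0.29 (adjusted p = 0.808, limma).

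Lmna codes for lamins A and C, which stiffen the nuclear lamina. Its levels lay close to background in all groups. It read 7.09, 7.43 and 7.03 log2 on perinate-tagged arrays, against 7.03, 6.69 and 6.69 on adult-tagged arrays, with the groups touching at 7.03. It passed the filter on dim genes in spleen, a mean of 7.05 log2 in at least 1 group, only through its perinate-tagged mean of 7.18. The difference was 0.38 ± 0.14 log2 (adjusted p = 0.0643, limma) and did not pass. It passed in 4 of 16 alternative fits, with adjusted p of 0.0260 after quantile normalization, 0.0281 after median centring, 0.0493 with the 2 groups alone and 0.0452 without the 2 spleen arrays of narrowest spread.

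Untagged cells read 6.84, 6.73 and 6.76 log2 for Lmna after perinatal and 6.63, 6.66 and 6.44 after adult treatment. Perinate thymus arrays read 6.98, 6.94 and 7.11 log2, and adult thymus arrays 7.18, 7.15 and 6.97, a difference of -0.09 ± 0.12 log2 (adjusted p = 0.559, limma). Adult thymus was higher than untagged adult-treated spleen by 0.52 ± 0.13 log2 (adjusted p = 0.0121, limma), a call lost with the 2 groups alone (adjusted p = 0.163) and without untagged adult-treated replicate 5 (adjusted p = 0.0609). Over all genes 16.3% passed between these groups, 6.82% higher and 9.51% lower in thymus. The groups differ in tissue, sex, sorter, mouse line, tamoxifen and age at once.

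Actn1 codes for alpha-actinin-1, which bundles actin filaments and ties them to integrins. It read 9.08, 9.14 and 9.14 log2 on the perinate-tagged arrays, against 9.83, 10.07 and 9.91 on the adult-tagged arrays. All perinate-tagged arrays were lower, by 0.82 ± 0.35 log2 or 1.76-fold on average, and 99.4% of the genes tested had a more positive difference. The adjusted p was 0.109 in the fit of all 12 spleen arrays (limma). It was 0.000135 with the 2 tagged groups alone, where the spread of the untagged arrays does not enter. With the replicate block the difference was -0.26 log2 (adjusted p = 0.606), in groups that share 1 number.

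That spread was large. Untagged replicate 3 read 10.24 log2 after perinatal treatment, where replicates 4 and 5 read 8.81 and 9.0. After adult treatment, replicate 3 read 10.11 log2 and replicates 4 and 5 read 8.60 and 8.98. The 2 arrays numbered 3 thus lay 1.33 and 1.32 log2 above the mean of the other arrays of their group. They also stood apart elsewhere. In both groups, 26 genes lay over 1 log2 above and 59 over 1 log2 below the mean of the other arrays. Dapl1, a gene of resting T cells, was the first of the 26, 2.75 and 3.22 log2 above the mean of the others. Il10 was the first of the 59, at -2.81 and -2.95 log2, and the Treg marker Ctla4 was among them at -1.37 and -1.35. What sets these arrays apart was not tested.

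In thymus, Actn1 was at its highest and its arrays agreed closely. It read 10.41 log2 on all 3 perinate thymus arrays, against 10.15, 10.10 and 10.09 on adult thymus arrays. The difference of 0.30 ± 0.10 log2 did not pass (adjusted p = 0.0667, limma), although the groups did not overlap. The tagged spleen difference minus the thymus difference was -1.12 ± 0.44 log2 and did not pass either (adjusted p = 0.143, limma). It passed with the compared groups alone (adjusted p = 0.000158), where the spread of the untagged arrays does not enter.

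Flna codes for filamin A, which crosslinks actin into networks and binds integrin tails. It read 11.63, 11.64 and 11.61 log2 in perinate-tagged cells, against 11.45, 11.41 and 11.29 in adult-tagged cells. The groups did not overlap, but the difference of 0.24 ± 0.19 log2 did not pass (adjusted p = 0.379, limma). Untagged arrays read 11.48, 10.73 and 10.98 log2 after perinatal and 11.03, 10.34 and 10.84 after adult treatment. In both of these groups replicate 3 was again the highest, by 0.63 and 0.44 log2 over the mean of the others.

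Tln1 codes for talin-1, which activates integrins and links them to actin. It read 10.73, 10.92 and 10.83 log2 in perinate-tagged cells, against 10.77, 10.71 and 10.70 in adult-tagged cells. These groups overlapped, and the difference was 0.10 ± 0.17 log2, with a 95% interval from -0.26 to 0.45 (adjusted p = 0.708, limma). It turned below 0 in 3 of 16 alternative fits, at -0.11 with each array centred on the tested genes. Untagged arrays read 10.86, 10.36 and 10.44 log2 after perinatal and 10.54, 9.90 and 10.34 after adult treatment, with replicate 3 the highest in both.

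The thymus separated these 2 genes by age. Flna read 11.34, 11.19 and 11.01 log2 in perinate thymus, against 10.73, 10.02 and 10.37 in adult thymus. It was higher in perinate thymus by 0.81 ± 0.19 log2, or 1.75-fold (adjusted p = 0.0207, limma). Tln1 read 10.90, 10.88 and 10.74 log2 in perinate thymus, against 10.51, 10.06 and 10.34 in adult thymus. It was higher by 0.53 ± 0.14 log2, or 1.45-fold (adjusted p = 0.0309, limma). In both genes the lowest perinate array stood above the highest adult array.

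Both calls were lost with the interquartile range of each array in the fit, where Flna differed by 0.40 log2 (adjusted p = 0.102) and Tln1 by 0.26 log2 (adjusted p = 0.167). Both were also lost without adult thymus replicate 3 or any 1 of the perinate thymus arrays, with differences of 0.73 to 0.89 log2 for Flna and 0.50 to 0.58 for Tln1. Without adult thymus replicate 2 the calls held, but the differences fell furthest, to 0.63 log2 for Flna and 0.41 for Tln1. That array stood apart most in the study, with 420 of 10889 genes over 1 log2 below the mean of the other adult thymus arrays. The Tln1 call was lost as well with each array centred on the tested genes (0.30 log2, adjusted p = 0.0698).

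Ahnak codes for a giant scaffold protein beneath the plasma membrane that is needed for calcium entry in mouse T cells. It read 9.68, 9.80 and 9.71 log2 in perinate-tagged cells, against 9.11, 9.10 and 9.23 in adult-tagged cells. The difference was 0.58 ± 0.16 log2 (adjusted p = 0.0186, limma). Without perinate-tagged replicate 2 it was 0.61 log2 (adjusted p = 0.0327). The call was lost in 8 of 16 alternative fits, 0.36 log2 after quantile normalization being the smallest of their differences (adjusted p = 0.0942).

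The untagged arrays spread across both tagged levels for Ahnak, with 9.26, 9.40 and 9.74 log2 after perinatal and 9.01, 9.36 and 9.61 after adult treatment. Here replicate 3 was the lowest of each group. In thymus the gene read 9.27, 9.17 and 9.03 log2 in perinate and 8.98, 8.77 and 8.90 in adult cells. That difference of 0.27 ± 0.12 log2 did not pass (adjusted p = 0.124, limma), although the groups did not overlap. Adult thymus lay below untagged adult-treated spleen by 0.44 ± 0.15 log2 (adjusted p = 0.0470, limma), a call lost in 9 of 15 alternative fits.

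Crip1 codes for a small cysteine-rich LIM-domain protein, of a family that binds actin. It read 13.01, 13.01 and 13.09 log2 in perinate-tagged cells, against 11.94, 11.99 and 12.16 in adult-tagged cells. The 3 perinate-tagged arrays lay above all 15 others. The difference was 1.01 ± 0.12 log2, or 2.01-fold (adjusted p = 5.96e-05, limma), and 1.02 log2 without perinate-tagged replicate 2. The call held in all 16 alternative fits, at 0.80 to 1.10 log2.

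Untagged arrays overlapped for Crip1, with 12.09, 12.36 and 12.21 log2 after perinatal and 12.34, 12.05 and 12.15 after adult treatment. In thymus it read 12.20, 12.44 and 12.54 log2 in perinate cells, against 12.21, 11.23 and 12.004 in adult cells, and the groups overlapped. Adult thymus replicate 2, the array with the narrowest spread of values (interquartile range 2.08), was the low one. The thymus difference was 0.57 ± 0.24 log2 (adjusted p = 0.109, limma) and 0.28 without that array. It passed without adult thymus replicate 1 (0.77 log2, adjusted p = 0.0339).

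Myo1f codes for a class I myosin that leucocytes make and that links membrane to actin, known in mouse neutrophils for its part in adhesion and migration. It read 10.00, 9.91 and 9.81 log2 in perinate-tagged cells, against 8.24, 8.60 and 8.32 in adult-tagged cells. No other array of the study passed 8.97 log2. The difference was 1.52 ± 0.14 log2, or 2.86-fold (adjusted p = 4.98e-06, limma), with 1.40% of all genes showing a higher one. Without perinate-tagged replicate 2 it was 1.47 log2, and the call held in all 16 alternative fits, at 1.26 to 1.62 log2.

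Untagged cells lay near the adult-tagged level, with 8.62, 8.57 and 8.71 log2 after perinatal and 8.53, 8.29 and 8.70 after adult treatment. In thymus the order of the ages was the opposite one. Myo1f read 7.18, 7.09 and 7.18 log2 in perinate thymus, against 8.97, 8.61 and 8.53 in adult thymus. It was lower in perinate thymus by 1.55 ± 0.14 log2, or 2.93-fold (adjusted p = 0.000662, limma). The perinate thymus level lay just above the filter on dim genes.

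The opposed directions of Myo1f were tested directly. The tagged spleen difference minus the thymus difference was 3.07 ± 0.20 log2 (adjusted p = 1.46e-08, limma over 10889 genes). By the size of its moderated t it was rank 3 of the 10889 genes, and 0.22% of genes had a larger difference. The value was 3.02 log2 without perinate-tagged replicate 2. It was the 1 gene of the 8 past the threshold, where 6.46% of all genes passed, 3.89% upwards. The other genes stood at 0.47 ± 0.18 log2 for Lmna, 0.43 ± 0.26 for Crip1, 0.42 ± 0.14 for Vim and 0.31 ± 0.21 for Ahnak. Tln1 stood at -0.44 ± 0.23, Flna at -0.56 ± 0.28 and Actn1 at -1.12 ± 0.44 log2. Among these genes, Vim passed in 3 of 21 alternative fits (adjusted p of 0.0188 to 0.0391) and Crip1 without adult thymus replicate 2 (0.72 log2, adjusted p = 0.0184). Actn1 passed with the compared groups alone (adjusted p = 0.000158). In the thymus groups, the summed intensity of 6 CD8 T and NK cell genes was 1675 to 1756 in perinate and 2191 to 2427 in adult cells, and its part in this difference was not tested.

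**Figure D2:**
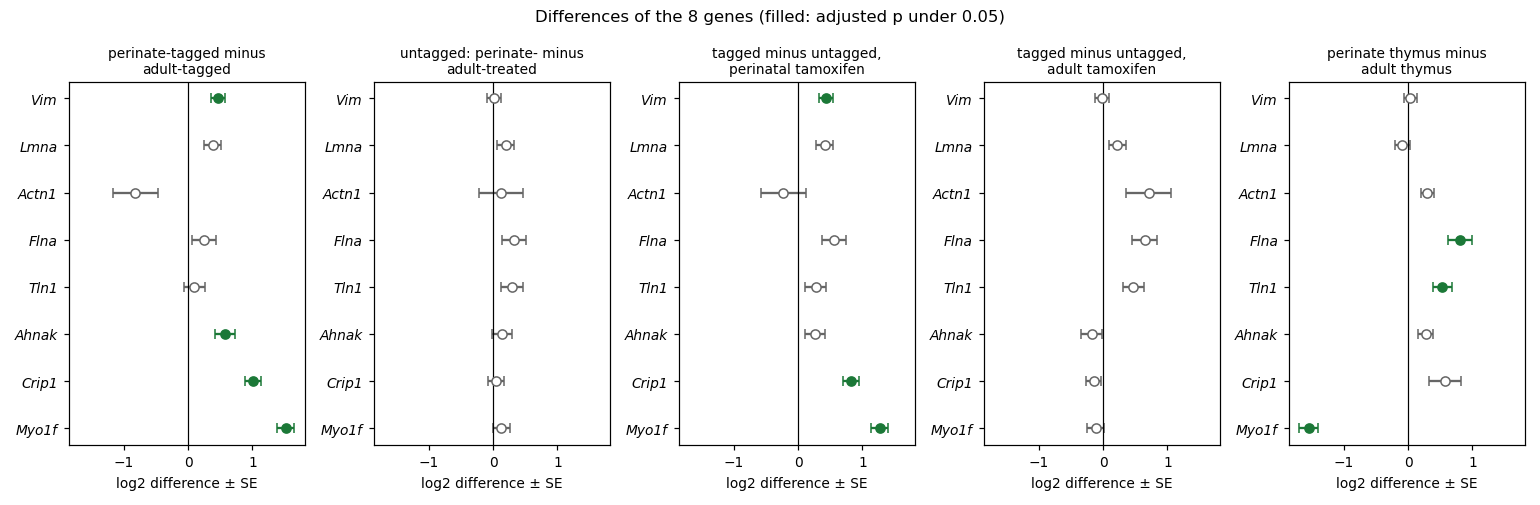
Log2 difference of each gene (x axis, bars are ± 1 SE) in 5 comparisons, 1 per panel, with filled points for an adjusted p under 0.05 (limma). Myo1f lies to the right in both panels that involve perinate-tagged cells (1.52 and 1.27) and to the left in thymus (-1.55), and no gene passes in the panels of untagged cells and of adult tamoxifen.

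The untagged cells served to ask whether the time of tamoxifen alone moved these genes. None of the 8 passed between untagged perinate-treated and untagged adult-treated cells (limma), and 0 of 10350 genes did (0%), with 380 at an unadjusted p under 0.05. Same-numbered untagged arrays deviated together for numbers 3 and 5, less so for 4, which the fit above does not take into account. Deviations from a group mean cancel within the group, so what numbers 4 and 5 show is not independent of number 3. With the replicate number as a block in the untagged arrays, 49 genes and again none of the 8 passed. Flna and Tln1 had the largest of the 8 differences, 0.32 ± 0.19 and 0.30 ± 0.17 log2. For Myo1f the 95% interval ran from -0.16 to 0.42 log2 and for Crip1 from -0.22 to 0.30. Lmna (0.19 ± 0.14), Ahnak (0.14 ± 0.16), Actn1 (0.12 ± 0.35) and Vim (0.01 ± 0.11 log2) made up the rest.

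The tagged difference minus the untagged difference was 1.39 ± 0.19 log2 for Myo1f (adjusted p = 0.00062, limma) and 0.97 ± 0.17 for Crip1 (adjusted p = 0.00386). Without perinate-tagged replicate 2 the values were 1.34 and 0.98 log2. These 2 of the 8 genes passed, where 4.89% of all genes did, 4.29% upwards. Cd79b (0.77 log2, adjusted p = 0.0349) and Epcam (1.38 log2, adjusted p = 0.0211) passed as well, and their part was not tested. Epcam was the 1 of 6 tested genes of stroma, endothelium and epithelium to pass, and the median of the 6 was -0.17 log2. Vim gave 0.45 ± 0.15 log2 and Ahnak 0.44 ± 0.22, which did not pass (adjusted p = 0.115 and 0.302). Vim passed after quantile normalization (0.52 log2, adjusted p = 0.0283) and with the trended robust prior (adjusted p = 0.0257). The values were 0.19 ± 0.20 log2 for Lmna, -0.08 ± 0.27 for Flna, -0.20 ± 0.23 for Tln1 and -0.94 ± 0.49 for Actn1, none past the threshold. Actn1 passed without untagged adult-treated replicate 3 (-1.38) and without both untagged arrays numbered 3 (-0.94, adjusted p = 0.00912). Those arrays were noticed for their Actn1 level, so these values describe their weight only.

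Within the perinatally treated mice, 3 of the 8 genes were higher in tagged than untagged cells and none was lower (limma), where 7.34% of all genes passed, 5.49% upwards and 1.86% downwards. The B cell gene Cd79b also passed (9.55 in tagged and 8.74 log2 in untagged cells, adjusted p = 0.00286), and its part was not tested. Myo1f was higher by 1.27 ± 0.14 log2 (adjusted p = 0.000108), Crip1 by 0.82 ± 0.12 (adjusted p = 0.00109) and Vim by 0.43 ± 0.11 (adjusted p = 0.0250). Without perinate-tagged replicate 2, Myo1f was at 1.22 and Crip1 at 0.83 log2. The Vim call was lost without any 1 of the perinate-tagged arrays, at 0.39 to 0.47 log2, and without untagged replicate 4 or 5 (0.44 and 0.43). Flna was 0.56 ± 0.19 log2 apart without passing (adjusted p = 0.0902), as were Lmna by 0.41 ± 0.14 (0.0911), Tln1 by 0.27 ± 0.17 (0.353) and Ahnak by 0.26 ± 0.16 (0.344). With the interquartile range as a covariate Lmna passed (adjusted p = 0.0423), and Flna passed with the replicate block (0.63 log2, adjusted p = 0.0262) and without untagged replicate 3 (0.77 log2, adjusted p = 0.0146). Actn1 stood at -0.23 ± 0.35 log2 (adjusted p = 0.744), and at 0.21 without untagged replicate 3. The median level of 50 snoRNA genes was 8.14 to 8.53 log2 in tagged and 8.70 to 9.54 in untagged cells, and its part in these differences was not tested. This comparison shares the perinate-tagged arrays with the first one, so the 2 are not independent.

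Within the mice treated as adults, none of the 8 genes passed between tagged and untagged cells (limma), where 0.271% of all genes passed and 1699 genes were at an unadjusted p under 0.05. Flna, Tln1 and Lmna did not overlap between the groups and were higher in tagged cells, as were 6.7% of all genes. Flna differed by 0.65 ± 0.19 log2 (adjusted p = 0.144), Tln1 by 0.47 ± 0.17 (adjusted p = 0.204) and Lmna by 0.22 ± 0.14 (adjusted p = 0.426). Actn1 was 0.71 ± 0.35 log2 higher on average (adjusted p = 0.321). Ahnak (-0.18 ± 0.16), Crip1 (-0.15 ± 0.12), Myo1f (-0.12 ± 0.14) and Vim (-0.02 ± 0.11 log2) overlapped between the groups. Leaving out untagged replicate 3, an array noticed for its Actn1 level, brought 3 of the 8 genes past the threshold, Actn1 at 1.15, Flna at 0.79 and Tln1 at 0.61 log2, with 774 of all genes in place of 28. Since that array was picked by the outcome, those values describe its weight only.

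**Figure D3:**
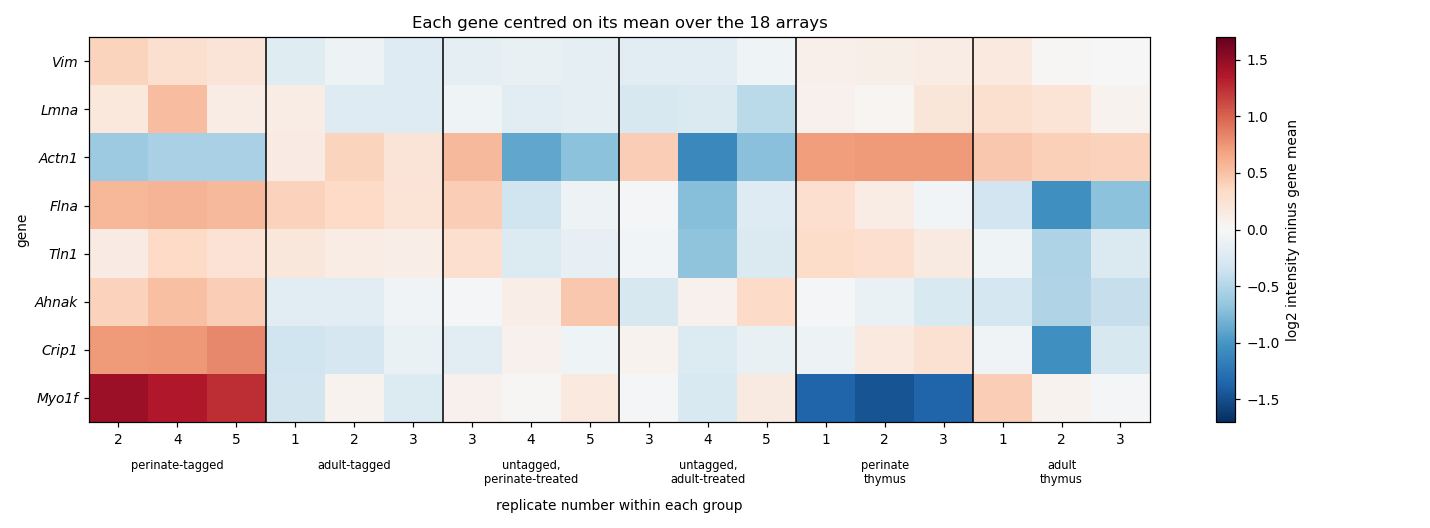
Log2 intensity of each gene (rows) minus its mean over 18 arrays, on every array (columns, grouped, with replicate numbers), as colour from blue (below the mean) to red (above). Myo1f and Crip1 are red on the perinate-tagged arrays, Actn1 is red in thymus and on both untagged arrays numbered 3, and Flna and Tln1 are both blue on untagged adult-treated replicate 4 and adult thymus replicate 2.

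Ordered by group mean, Myo1f had the perinate-tagged arrays apart at the top and the perinate thymus arrays apart at the bottom, while adult thymus, both untagged groups and adult-tagged cells overlapped in between. Actn1 ran from perinate thymus over adult thymus to adult-tagged cells with no overlap between neighbours, and both untagged groups overlapped with their neighbours on either side. For Vim and Crip1 the perinate-tagged arrays stood apart at the top, and for Tln1 every group overlapped with its neighbour. Ahnak had adult thymus apart at the bottom and Lmna had untagged adult-treated cells there, while Flna had perinate-tagged cells apart at the top.

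Across the 18 arrays the genes followed several courses. After centring each gene on its own mean, the closest pair was Lmna and Vim, with a root mean square difference of 0.16 log2, followed by Flna and Tln1 at 0.24. For comparison, Vim alone varied by 0.18 log2 around its mean, Tln1 by 0.29 and Myo1f by 0.81. The gene nearest to Tln1 among 10889 was Add1 (adducin 1, which caps actin at the spectrin cortex, 0.10 log2), and nearest to Flna were Atp2a3 (0.13) and Msn (moesin, 0.15). Nearest to Myo1f was Ccr4, a chemokine receptor of activated and skin-homing T cells, at 0.35 log2. Nearest to Actn1 was Treml2 at 0.21, to Crip1 Msrb1 at 0.16, to Vim Vps26a at 0.10, to Lmna Pdlim7 at 0.13 and to Ahnak Lpgat1 at 0.12. These are descriptions over arrays that share groups and normalization.

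Other cytoskeleton genes were followed as 8 lists holding 163 genes, 149 of them measured. Of the 124 tested in spleen, 28 were higher and 1 was lower in perinate-tagged than adult-tagged cells (limma), or 23.39%, against 19.5% of all genes. Their median difference was 0.22 log2, against 0.12 for all genes. The counts were 29 and 2 without perinate-tagged replicate 2, while 16 to 29 were higher leaving out 1 array. Of the adult-tagged arrays, leaving out replicate 1 gave 16 higher and replicate 3 gave 17, and of the perinate-tagged ones replicate 4 gave 18. With the 2 groups alone 44 of 123 were higher and 2 lower, where over all genes 2563 were higher and 808 lower, in place of 1658 and 362. With the interquartile range as a covariate 8 were higher and none lower, with the replicate block 12 and none, and centred on the tested genes 16 and 4, with a median of 0.00 log2 against -0.11 for all genes. Between the untagged groups none passed.

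Family relatives of the 8 genes had 6 of 13 higher and none lower. The LIM protein Crip2 was higher by 1.60 ± 0.20 log2 and lamin B1 (Lmnb1) by 1.21 ± 0.18. The adult-tagged mean of Crip2, 6.82 log2, lay below the filter on dim genes. The class I myosins Myo1e, by 0.94 ± 0.18, and Myo1c, by 0.68 ± 0.14 log2, were higher as well. In the integrin linkage list, 2 of 18 were higher, zyxin (Zyx, 0.79 ± 0.12 log2) and vinculin (Vcl, 0.72 ± 0.16), both partners of alpha-actinin at adhesion sites. Tgfb1i1 (Hic-5, a paxillin relative) was lower by 0.41 log2.

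Among the 42 tested genes of actin and its assembly, 11 were higher and none lower. The actin-severing protein Dstn (destrin) was higher by 1.77 ± 0.20 log2, Plek (pleckstrin) by 1.11 ± 0.21, the capping protein Capg by 1.03 ± 0.15 and the Arp2/3 subunit Arpc5 by 0.91 ± 0.14. The adult-tagged mean of Plek, 6.49 log2, lay below the filter and close to background. Tropomyosins Tpm4 (0.79) and Tpm1 (0.43 log2) were the 2 of 9 higher in the myosin II and tropomyosin list. In the nuclear lamina and envelope list 3 of 14 were higher, Nrm (nurim) by 1.03, the lamin B receptor Lbr by 0.69 and Tmpo by 0.45 log2.

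Membrane cortex genes had 3 of 12 higher, led by Myadm, a membrane protein, at 2.89 ± 0.26 log2 (means of 10.21 in perinate-tagged against 7.32 in adult-tagged cells). Marcksl1 (0.78) and Iqgap1 (0.42 log2) were the others. Tubg1 was the 1 of 9 tubulins higher, by 0.39 log2. None of 7 genes of serum response factor and its cofactors passed, and their median was -0.02 log2.

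**Figure D4:**
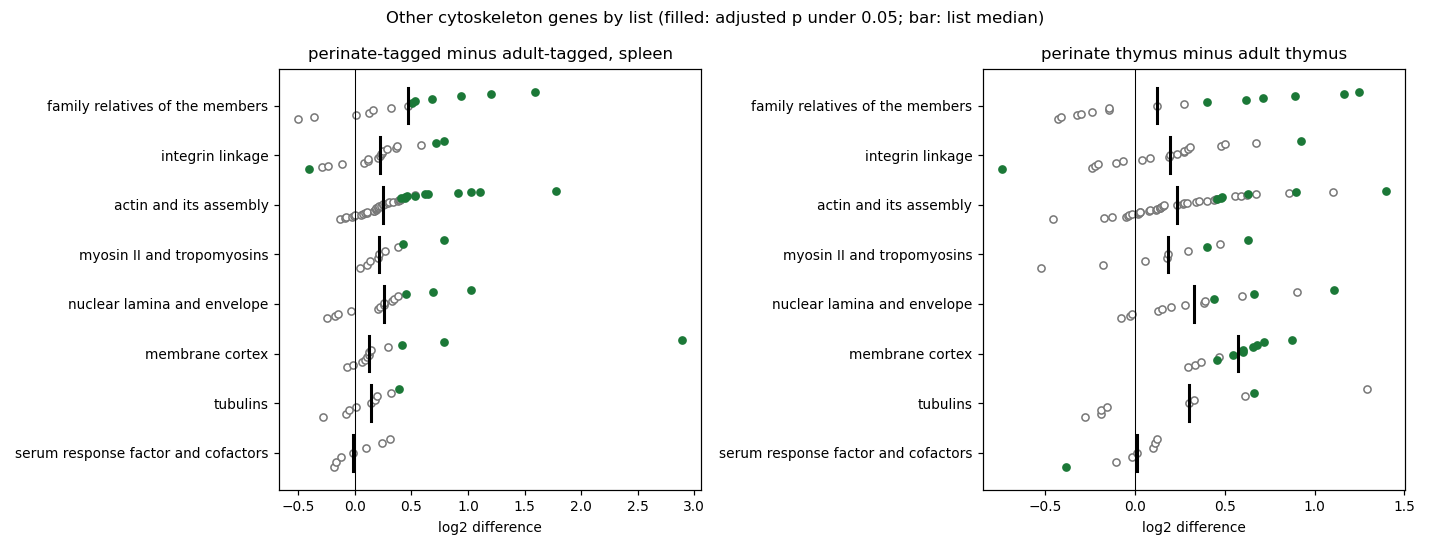
Log2 differences (x axis) of other cytoskeleton genes in 8 lists (rows), for perinate-tagged minus adult-tagged cells (left) and perinate minus adult thymus (right). Points are genes, filled for an adjusted p under 0.05 (limma), and the bar is the list median, 0.12 log2 for membrane cortex on the left and 0.57 on the right.

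After perinatal tamoxifen, 19 of the 124 genes were higher in tagged than untagged cells and none lower, or 15.32% against 7.34% of all genes. There were 14 higher without perinate-tagged replicate 2 and 9 to 26 leaving out 1 array. Without both untagged arrays numbered 3 there were 43 higher and 1 lower, where 1599 of all genes passed in place of 760. Myadm again had the largest difference, 3.17 ± 0.26 log2. Crip2 (1.36), Dstn (1.52), Tpm4 (0.88), Vcl (0.86) and Zyx (0.63 log2) were also higher, in a comparison that shares its perinate-tagged arrays with the first.

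In thymus, 27 of 126 genes were higher and 2 lower in perinate than adult cells (limma), or 23.02%, against 24.3% of all genes. The split was 17 and 11 with the interquartile range as a covariate, 16 and 9 after quantile normalization, 13 and 13 centred on the tested genes, and 5 to 45 were higher leaving out 1 array. The membrane cortex list had 8 of 12 higher, with moesin (Msn) at 0.88 ± 0.18 log2, Epb41l2 at 0.72 ± 0.13, beta-spectrin (Sptbn1) at 0.68 ± 0.13 and Add1 at 0.66 ± 0.13. Its median was 0.57 log2, against 0.17 for all genes. Lmnb1 (1.25), Myo1e (1.16), Tln2 (0.89) and Actn4 (0.71 log2) were the relatives with the largest differences, and Vcl was higher by 0.93 log2. Tln2 and Vcl passed the filter on dim genes in thymus only through the perinate cells, with means of 6.90 and 6.87 log2 in adult cells. Myo1e, unlike Myo1f, was thus higher in the perinate cells of both tissues.

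Coro1c (1.40 log2), Dstn (0.90), Nckap1l (0.63) and Actr3 (0.48) led the 6 of 41 actin genes that were higher in perinate thymus. Non-muscle myosin heavy chain Myh9 (0.63) and Tpm3 (0.40 log2) were the 2 of 9 in the myosin II and tropomyosin list. Nrm (1.11), Syne3 (0.66) and Tmpo (0.44) were the 3 of 14 in the lamina list, and Tubg1 was higher by 0.66 log2. Tgfb1i1 was lower by 0.74 log2, having passed the filter only through the adult cells, and Mrtfb, a cofactor of serum response factor, by 0.38.

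Against untagged adult-treated spleen, the 6 genes of the 8 that did not pass in adult thymus stood at 0.89 ± 0.31 log2 for Actn1, 0.22 ± 0.10 for Vim, 0.20 ± 0.14 for Myo1f, 0.05 ± 0.16 for Tln1, -0.36 ± 0.18 for Crip1 and -0.36 ± 0.20 for Flna. Actn1 passed in 4 of 15 alternative fits, among them those without untagged adult-treated replicate 3, an array noticed for its Actn1 level. Vim passed in 2, with the interquartile range as a covariate (adjusted p = 0.0485) and centred on the tested genes (adjusted p = 0.0483). Crip1 passed without adult thymus replicate 1 (-0.56 log2, adjusted p = 0.0361).

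Between adult thymus and untagged adult-treated spleen, 9 of 127 genes were higher and 11 lower, or 15.75%, against 16.3% of all genes. After median centring 7 were higher and 21 lower. With the 2 groups alone 1 was higher and none lower, where 163 of all genes passed in place of 1779. The split was 7 and 2 without untagged replicate 5, 10 and 3 without adult thymus replicate 2, and 10 and 26 without adult thymus replicate 1. Among those higher in thymus were Tubb2b by 1.16 ± 0.23 log2, Myo1d by 1.03 ± 0.22 and tensin-1 (Tns1) by 0.80 ± 0.17. Among those lower in thymus were Coro1a by 1.03 ± 0.30 log2 (coronin 1A), Rasgrp2 by 0.77 ± 0.23 and Nrm by 0.67 ± 0.17.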

How the data were processed

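The values deposited by the authors are probe set intensities on a linear scale, which per the submitters' processing notes come from RMA in Affymetrix Power Tools. Versions, genome build and the arrays normalized together are not given in the sources used here. Arrays have no read depth, so their number limits the precision. Of 24922 probe sets, 21425 carried 1 gene symbol, and the one with the highest mean per gene left 19752 genes. Intensities were log2 transformed with no pseudocount. Genes were tested if the mean of any group in the fit was 7.05 log2 (132.7 linear) or more, the median over the whole table.

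Testing used lmFit and eBayes of limma 3.58.1 (R 4.3.3; two-sided, Benjamini-Hochberg over all genes of a contrast, threshold 0.05) over the 12 spleen arrays, the 6 thymus arrays or all 18. Exact permutation of 3 against 3 arrays cannot go below p = 0.1. The genes and lists were chosen with earlier results of these data known. All 8 genes are named in every contrast. From each list up to 4 genes past the threshold with the largest differences are named between the tagged groups and between the thymus groups. For tagged against untagged cells and for thymus against spleen, only some of these are named. Per gene the nearest by root mean square difference of centred values is named, from a ranking of 3. Alternatives were quantile normalization, median centring, no filter, the interquartile range as a covariate, a trended robust prior, the replicate number as a block, fits of the compared groups alone, the mean of a gene's probe sets and leaving out each array. Centring on the tested genes, and leaving out both untagged arrays numbered 3 or the 2 spleen arrays with the narrowest spread, were added after seeing the data. The replicate numbers were checked by correlating deviations from group means. Between the untagged groups same-numbered arrays gave r of 0.62, 0.13 and 0.45. Deviations cancel within a group, so these values are not independent of each other. Arrays numbered 4 in 1 of these groups and 5 in the other gave 0.28 and 0.29, above the 0.13 of the same-numbered arrays. The main fits did not pair these arrays, and the number entered only as the block of an alternative. In thymus r was -0.05, 0.07 and 0.12, and in the tagged groups the 1 shared number gave 0.00, so those share only a number. The arm with chimeras that the series text describes was not analysed here. The scripts were tested on simulated data. Promoters are from RefSeq, GRCm38.p6, and all 8 genes matched by symbol.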

Additional observations from a re-analysis of the deposited data

Results flagged for a closer look

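For Myo1f the tagged difference and the untagged difference between perinatal and adult tamoxifen differed by 1.39 ± 0.19 log2 (adjusted p = 0.00062, limma). All 3 perinate-tagged arrays lay above all 9 other spleen arrays. For Crip1 the same test gave 0.97 ± 0.17 log2 (adjusted p = 0.00386), again with the 3 perinate-tagged arrays above the 9 others. For Myo1f the tagged spleen difference and the thymus difference ran opposite ways, 1.52 and -1.55 log2, and differed by 3.07 ± 0.20 (adjusted p = 1.46e-08). In that test tissue, sex, sorter, mouse line, tamoxifen and age cannot be told apart.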

How the results depend on the processing

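Myo1f kept its call in every alternative of the 5 comparisons in which it passed, and Crip1 in the 3 in which it passed. The number of the 8 genes called between the tagged groups was 4. It was 2 with the interquartile range as a covariate, with the replicate block and with centring on the tested genes, and 3 to 4 leaving out 1 array. It was 5 after median centring and 6 with the compared groups alone, 5 higher and Actn1 lower. Over all genes, the count of 2020 was 376 with the covariate, 655 with the block and 2387 centred on the tested genes. It was 2180 after median centring and 3371 with the compared groups alone. For tagged against untagged cells after adult tamoxifen, 0 became 3 without both untagged arrays numbered 3, and 0 to 3 leaving out 1 array. In thymus, 3 became 1 with the covariate, and 1 to 4 leaving out 1 array. For the spleen difference minus the thymus difference, 1 became 2 after quantile normalization, with the covariate, with the trended prior and with the compared groups alone, and 1 to 2 leaving out 1 array. For adult thymus against untagged adult-treated spleen, 2 became 1 with no filter and 0 with the compared groups alone, and 0 to 3 leaving out 1 array. For the remaining comparisons the count was 2 to 3 (tagged minus untagged difference), 2 to 4 (tagged against untagged, perinatal tamoxifen) and 0 (untagged groups) leaving out 1 array. The replicate block took the Vim call in both comparisons of perinate-tagged cells (0.45 log2, adjusted p = 0.0981, against adult-tagged, and 0.38, adjusted p = 0.0759, against untagged) and the Ahnak call (0.37, adjusted p = 0.249), and brought Flna past the threshold against untagged cells (0.63, adjusted p = 0.0262). The cause of these changes was not tested.

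The scaling moved the split of all genes. Between the tagged groups, 1658 genes were higher and 362 lower, against 1064 and 894 after quantile normalization, 2004 and 176 after median centring, and 898 and 1489 centred on the tested genes. The median gene stood at 0.12, -0.04, 0.21 and -0.11 log2 in these 4 settings. In thymus the splits were 1967 and 622, then 1216 and 1062, 2213 and 300, and 1136 and 1679. Of 2020 genes called between the tagged groups, 376 were called with the covariate, 655 with the block, 3371 with the compared groups alone, 1076 without the 2 narrowest arrays and 906 to 2052 leaving out 1 array. Between the untagged groups the count of 0 became 49 with the block, 21 without both arrays numbered 3 and 0 to 5 leaving out 1 array. The count of 506 for the difference between these differences was 274 with the block, 247 without the narrowest arrays and 279 to 679 leaving out 1 array. After perinatal tamoxifen 760 became 1599 without both arrays numbered 3 and 299 to 1001 leaving out 1 array. After adult tamoxifen 28 became 17 with no filter, 0 with the covariate, 11 with the block, 120 with the compared groups alone, 12 centred on the tested genes, 1450 without both arrays numbered 3, 0 without the narrowest and 0 to 774 leaving out 1 array, 774 being without untagged adult-treated replicate 3. In thymus, 2589 became 707 to 4388 leaving out 1 array. For spleen minus thymus 703 became 1065 after quantile normalization, 440 after median centring, 1462 with the covariate, 1055 with the compared groups alone and 393 to 1069 leaving out 1 array. Between tissues 1779 became 163 with the compared groups alone and 759 to 2385 leaving out 1 array.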
